A study of Arabidopsis thaliana with 6 samples.

Results

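Cytochrome P450 genes of *Arabidopsis thaliana* were examined in *gis5* and wild type (WT) seedlings on Affymetrix ATH1 arrays. A gene was taken as a member if its probe set had a single annotated gene with a CYP symbol of the P450 kind, and 37 genes, each with 1 probe set, met this rule among 22746 probe sets that are not Affymetrix controls. The platform annotation named 23 of them. The other 14 were named only through a gene list of the study, which is ordered by the size of the difference between the genotypes on these same arrays and was read in its first 1996 rows, so these 14 had already been singled out for a difference in the authors' own values. Of 252 P450 genes in the gene table of RefSeq (TAIR10.1), the other 215 have no probe set named here and were not analysed here.

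The *gis5* seedlings carry a point mutation in *POLD1*, which encodes the polymerase subunit of DNA polymerase δ, and come from a single mutant allele that had been backcrossed to WT. WT was Columbia, the background of the mutant. All plants were whole seedlings, leaves and roots together, 10 days old and grown on MS medium under continuous light, at 23°C by the description of the series and 1 degree more by the methods. Each genotype had 3 biological replicates with 1 array each, and the mutation changes a base and does not remove the transcript, so *POLD1* signal does not check the labels.

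Cytochromes P450 are heme enzymes, most of which insert an oxygen atom into a substrate with electrons passed on by a reductase in the membrane of the endoplasmic reticulum. Plants hold very large P450 families, numbered by sequence similarity and gathered into clans, and the enzymes act in the synthesis and breakdown of hormones, sterols, lignin, waxes, pigments and defence compounds. Some plant P450 genes lie beside the genes of the same pathway, as in the thalianol and marneral clusters, which make triterpenes and are known to be used mainly in roots.

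The deposited values are linear MAS5 signals, scaled to a mean of about 500 after trimming on each array, and array medians lay between 174 and 191. The medians were 187, 191 and 185 in *gis5* and 178, 174 and 182 in WT, without overlap. This offset stays in the log2 ratios unless the arrays were scaled further. A log2 ratio is the difference of the mean log2(signal + 16) of *gis5* and WT, a scale on which dim probe sets show too small a change, and is printed ± its standard error. Tests were made with limma over all 22746 probe sets, and an adjusted p is by Benjamini-Hochberg over all of them. Of the 37 members, 16 had a mean signal above the median of all probe sets (186). Markers of both labelled organs were present: *RCA*, the Rubisco activase gene of leaves, lay between 34517 and 43821 on the 6 arrays, and *CASP1*, a gene of the root endodermis, between 901 and 1639.

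No P450 gene passed an adjusted p of 0.05 in limma, against 0.0044% of all probe sets with a higher signal in *gis5* and 0% with a lower one. At an unadjusted p under 0.05, 6 of 37 members had a higher and 1 a lower signal in *gis5*, where the shares of all probe sets were 5.99% and 3.06%. With the arrays centred on their medians the members' counts were again 6 and 1, and the shares of all probe sets were 4.26% and 4.98%. These were *CYP82C4*, *CYP78A9*, *CYP705A12*, *CYP705A5*, *CYP71B24* and *CYP708A2* on the higher side and *CYP81D11* on the lower. Among the 23 members named by the platform annotation the counts were 2 and 0, *CYP78A9* and *CYP71B24*, and the shares of all probe sets named in that way were 5.77% and 2.97%. Among the 14 named through the study's list they were 4 and 1. Of all 851 probe sets named through that list, 30.8% were higher and 14% lower at the same threshold, and nothing is read from the counts of these 14.

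With the thresholds of the study's methods, an unadjusted p under 0.05 together with a log2 difference no smaller than 1 in size, 3 members were higher in *gis5* (*CYP82C4*, *CYP78A9* and *CYP705A12*) and 0 lower, against 1.38% and 0.541% of all probe sets. Of the 23 members of the platform annotation 1 was higher and 0 lower by these thresholds (background 1.32% and 0.607%), and of the 14 of the study's list 2 and 0 (background 7.99% and 0.823%). Every *gis5* array lay above every WT array for 9 members and below for 2, where all probe sets gave 9.13% and 6.79%. Among the 23 the counts were 4 and 0, beside 8.53% and 6.2% of the probe sets named in the same way, and among the 14 they were 5 and 2, beside 38.2% and 18.4%. In an exact permutation test 3 arrays against 3 cannot give a p below 0.1. The median log2 ratio of the 37 was 0.24, and 27 were positive. Over all probe sets the median was 0.03, and 53.6% were positive. The 23 members of the platform annotation had a median of 0.17, and 17 of them were positive, where 54.1% of the probe sets so named were. The other 14 had 10 positive, where 63.3% were. Replicate 2 of *gis5* held the highest signal for 12 members and the lowest for 0, and replicate 3 of *gis5* the highest for 12 and the lowest for 7. Without replicate 2 of *gis5* the median of the 37 was 0.07, that of all probe sets was 0.02, and 22 members were positive. With the arrays centred on their medians the median of the 37 was 0.17, that of all probe sets was −0.04, and 23 members were positive.

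**Figure D1:**
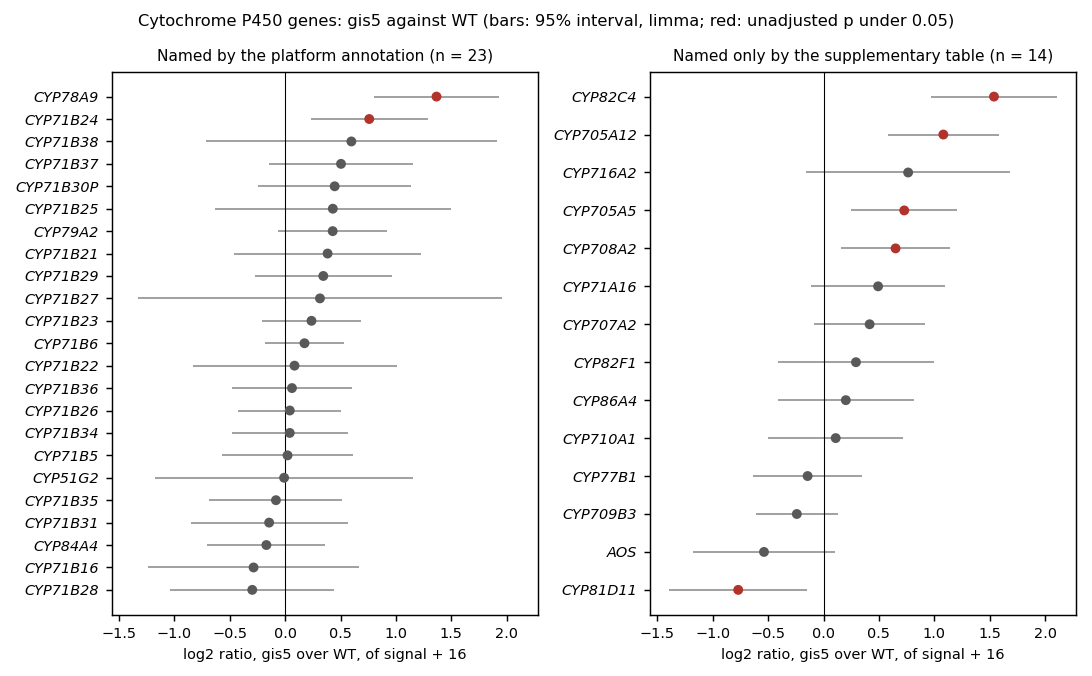
Log2 ratio of *gis5* over WT for the 37 P450 genes, with the 95% interval from limma, split by how the probe set was named (23 by the platform annotation on the left, 14 only through the study's gene list on the right). The 7 red points have an unadjusted p under 0.05, 6 above 0 and 1 below.

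*CYP82C4* (AT4G31940), which encodes the enzyme that hydroxylates the coumarin fraxetin and is known for its induction under iron deficiency, had the largest log2 ratio of the 37. Its signal was 216, 242 and 256 on the *gis5* arrays, against 52.1, 105 and 64.3 on the WT arrays. The groups did not overlap, and the lowest *gis5* array was above the highest WT array, replicate 2. *CYP82C4* was named only through the study's list, which is ordered by difference. Of the probe sets so named, 38.2% had every *gis5* array above every WT array. The log2 ratio was 1.54 ± 0.24 (95% interval 0.97 to 2.11, limma adjusted p = 0.13), a 2.90-fold difference of signal + 16. It lay between 1.36 and 1.78 when any 1 array was left out. With a pseudocount of 64 it was 1.15 (adjusted p = 0.036), and with a trended and robust variance the adjusted p was 0.0059, so that the call depends on these settings.

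Of 12 other genes of iron deficiency and coumarin secretion, 6 had a named probe set. None passed an adjusted p of 0.05 in limma. At an unadjusted p under 0.05, 3 had a higher signal in *gis5* (1 without *gis5* replicate 3) and 0 a lower one. The shares of all probe sets were 5.99% and 3.06%. The 3 were *F6'H1*, AT3G12900 and *ABCG37*. *F6'H1* (AT3G13610), whose enzyme opens coumarin synthesis by making scopoletin's precursor, had 748, 597 and 651 in *gis5* and 294, 334 and 331 in WT. Its *gis5* arrays were all above the WT arrays, with a log2 ratio of 1.02 ± 0.16 (limma adjusted p = 0.13). AT3G12900 had 102, 68.4 and 106 in *gis5*, and 5.15, 38.4 and 58.8 in WT, where replicate 1 was far below the others, and a log2 ratio of 1.28 ± 0.46. *ABCG37* (AT3G53480), for a transporter of phenolic compounds in roots, had a log2 ratio of 0.44 ± 0.15. *IRT1* (AT4G19690), the iron transporter of the root epidermis, had 889, 1073 and 1198 in *gis5* and 834, 766 and 814 in WT, which do not overlap, at a log2 ratio of 0.37 ± 0.17 (limma adjusted p = 0.57). *BGLU42* (AT5G36890) and AT1G28680 had log2 ratios of −0.06 and 0.19. *F6'H1*, AT3G12900, *BGLU42* and AT1G28680 were named by the platform annotation, and *IRT1* and *ABCG37* only through the study's list. Of the probe sets named by the annotation 5.77% were higher at an unadjusted p under 0.05, and of those named through the list 30.8%.

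The triterpene group held 5 members of a list of 8, all named through the study's list, and all 5 had a positive log2 ratio, between 0.49 and 1.08, where 63.3% of the probe sets named through that list did. Of these, 3 had a higher signal in *gis5* at an unadjusted p under 0.05, where 30.8% of the probe sets named in that way did. Since that list is ordered by difference, nothing is read from these counts. The number past this threshold was 5 without WT replicate 1 and 2 without *gis5* replicate 3 or WT replicate 2. *CYP705A5* (AT5G47990), the thalian-diol desaturase, had 1350.4, 1695 and 1931 in *gis5*, against 1125, 832 and 1018 in WT. *CYP708A2* (AT5G48000), the thalianol hydroxylase, had 1288, 1457 and 1801 in *gis5*, against 1127, 788 and 967 in WT. For both genes the *gis5* arrays were all above the WT arrays, replicate 1 was the lowest of *gis5* and the highest of WT, and the gap between those was smaller than the range within either genotype. The log2 ratios were 0.73 ± 0.20 (limma adjusted p = 0.38) for *CYP705A5* and 0.65 ± 0.21 (limma adjusted p = 0.45) for *CYP708A2*. *CYP708A2* no longer had an unadjusted p under 0.05 without *gis5* replicate 3 or without WT replicate 2, at log2 ratios of 0.52 in each case.

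In the RefSeq gene order *CYP705A5* and *CYP708A2* are next to each other on chromosome 5, followed by *THAS1*. *THAS1* (AT5G48010), for the thalianol synthase that makes the substrate of the *CYP708A2* enzyme, had 1087, 1183 and 1296 in *gis5*, against 638, 601 and 620.4 in WT. The groups were far apart compared with their own ranges, and the log2 ratio was 0.92 ± 0.15 (limma adjusted p = 0.14). On the other side of *CYP705A5*, AT5G47980 had 256, 238 and 336 in *gis5* and 201, 115 and 191 in WT, also without overlap, and a log2 ratio of 0.68 ± 0.25. AT5G47950, farther out, had 121, 165 and 191 in *gis5* and 200.2, 172 and 214 in WT, which overlap, and a log2 ratio of −0.29 ± 0.20. AT5G47980 and AT5G47950 were named by the platform annotation, *THAS1* only through the study's list.

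The marneral cluster, on the same chromosome, holds *CYP705A12*, *CYP71A16* and *MRN1*. *CYP705A12* (AT5G42580) had 107, 110.0 and 131 in *gis5*, against 38.4, 65.1 and 38.2 in WT. Here the groups were apart, with a log2 ratio of 1.08 ± 0.21 (limma adjusted p = 0.21), which was 0.70 with a pseudocount of 64. Its neighbour *CYP71A16* (AT5G42590), the marneral oxidase, had 126, 203 and 215 in *gis5* and 158, 110.0 and 102 in WT. Replicate 1 of *gis5* lay below replicate 1 of WT, and the log2 ratio was 0.49 ± 0.25 (limma adjusted p = 0.62). *MRN1* (AT5G42600), for the marneral synthase, was named only through the study's list. It had 174, 186 and 235 in *gis5* and 179.8, 58.6 and 157 in WT, which overlap, at a log2 ratio of 0.64 ± 0.37 (limma adjusted p = 0.66). The fifth member, *CYP716A2* (AT5G36140), for an oxidase of pentacyclic triterpenes, sits next to the triterpene synthase gene *PEN3*. It had 71.03, 71.9 and 114 in *gis5* and 88.1, 22.0 and 35.6 in WT, a log2 ratio of 0.76 ± 0.39 (limma adjusted p = 0.61), which was 1.18 without WT replicate 1.

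**Figure D2:**
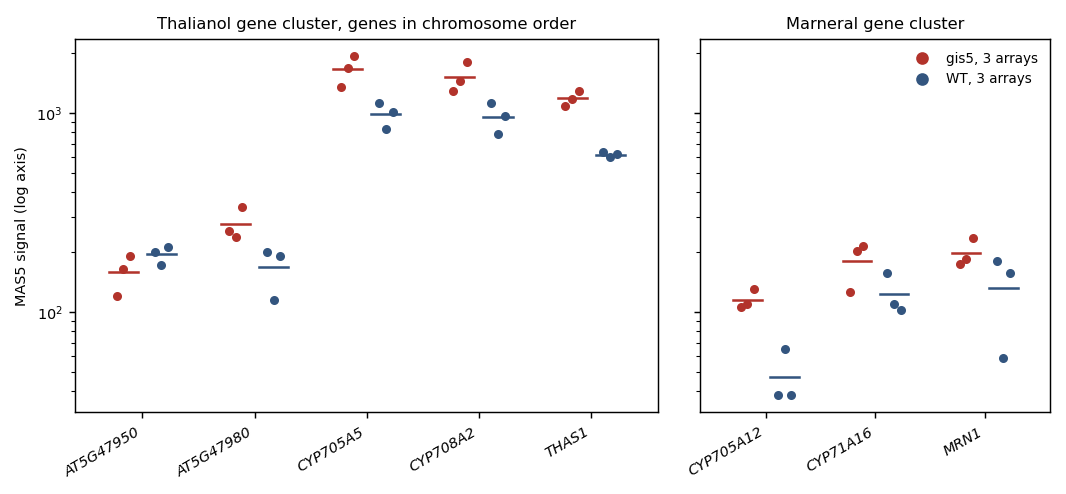
MAS5 signal on a log axis for 5 genes of the thalianol cluster, left, and 3 genes of the marneral cluster, right, in chromosome order. Points are arrays, *gis5* left of WT for each gene, and lines are group means of the 3 arrays. The *gis5* arrays are all above the WT arrays for AT5G47980, *CYP705A5*, *CYP708A2*, *THAS1* and *CYP705A12*, and overlap them for AT5G47950, *CYP71A16* and *MRN1*.

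Of 16 root marker genes, 6 were measured, with positive log2 ratios throughout and a median of 0.59. The lowest was that of *CASP1*, 0.20 ± 0.23, with overlapping arrays. At an unadjusted p under 0.05, 2 were higher in *gis5*, *TIP2;3* and *PRP3*. These were named only through the study's list, as were 4 of the 6 in all. Of the probe sets named in that way 63.3% had a positive log2 ratio and 30.8% were higher at this threshold. Since that list is ordered by difference, nothing is read from these counts. The number past this threshold was 4 without WT replicate 1 and 0 without *gis5* replicate 3 or WT replicate 2. With a pseudocount of 64 or a trended and robust variance it was 5. It was 1 with a pseudocount of 1, with the replicate block and with the arrays centred on their medians, where *PRP3* had an unadjusted p of 0.054 in limma. The summed signal of the 6 was 4244, 4081 and 4983 in *gis5*, against 3457, 2784 and 3415 in WT, and no marker was listed at 0. For *EXPA7* (AT1G12560) and *EXPA18* (AT1G62980), expansin genes of root hair cells and the only root markers named by the platform annotation, the log2 ratios were 0.79 ± 0.36 and 0.60 ± 0.26, with overlapping arrays. The leaf markers *LHCB4.2* and *RCA*, 2 of 7 on that list, had summed signals of 56736, 52774 and 50536 in *gis5* and 64729, 61357 and 66579 in WT, and log2 ratios of −0.35 and −0.23, which were −0.21 and −0.07 after quantile normalization. The part of organ proportions in the triterpene and coumarin results was not tested, and in these whole seedlings a different share of root cells and a different level per cell cannot be told apart.

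**Figure D3:**
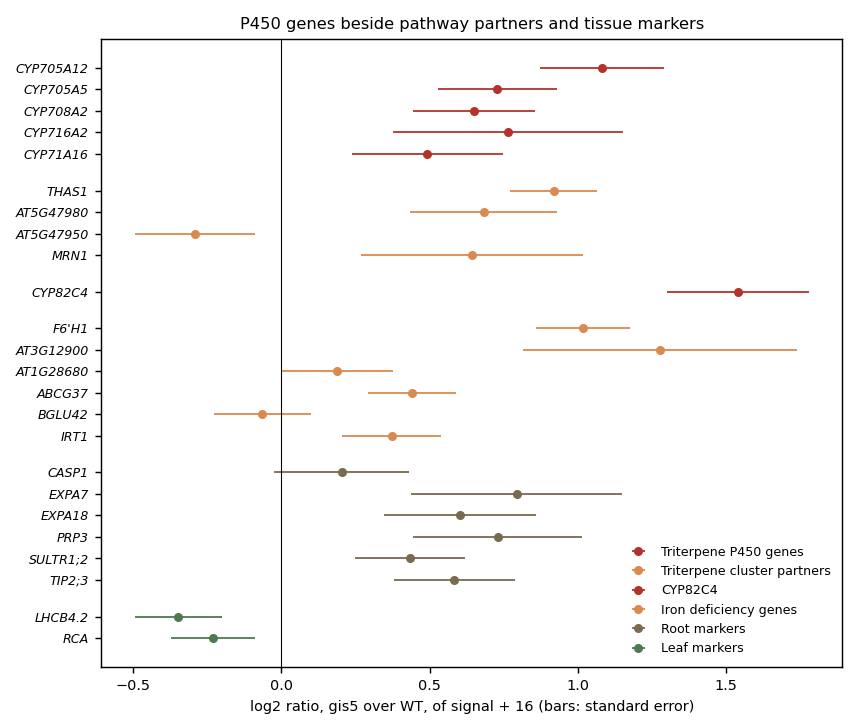
Log2 ratio of *gis5* over WT, with its standard error, for the 5 triterpene P450 genes and *CYP82C4*, the genes of the same pathways, and the root and leaf markers. The triterpene P450 genes lie between 0.49 and 1.08, the root markers between 0.20 and 0.79, *CYP82C4* at 1.54, and the leaf markers below 0.

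*CYP78A9* (AT3G61880) belongs to a subfamily that promotes organ growth and is known for its effect on fruit and seed size. It was named by the platform annotation and had the largest ratio of those 23. The signal was dim, 49.8, 68.3 and 50.7 in *gis5*, against 22.1, 7.79 and 7.78 in WT. The lowest *gis5* array was above the highest WT array, replicate 1, and 2 of the WT signals were under 10. The log2 ratio was 1.37 ± 0.24 (95% interval 0.80 to 1.93, limma adjusted p = 0.16), and between 1.25 and 1.59 without any 1 array. Its size moved with the pseudocount, to 2.22 for a pseudocount of 1 and 0.65 for a pseudocount of 64. Of 7 listed flower genes 5 were measured, all named through the study's list. At an unadjusted p under 0.05, 4 were higher in *gis5*, where 30.8% of the probe sets named in that way were. The arrays of *PI* overlapped. Since that list is ordered by difference, nothing is read from this count. Summed, the 5 flower genes gave 1434, 1562 and 1099.7 in *gis5* and 176, 239 and 196 in WT. *SEP3*, a regulator of floral organ identity, passed an adjusted p of 0.05 (3.53 ± 0.24, limma adjusted p = 0.048). The paper reports ectopic expression of *SEP3* in *gis5*, with high *SEP1* and *SEP2* mRNA as well. The sum of the 5 flower genes is therefore no measure of floral tissue here. Of 9 seed genes 3 were measured, all named through the study's list. Their sums were 168, 1210.0 and 662 in *gis5* and 178, 209 and 175 in WT, and *gis5* replicate 1 lay below all 3 WT arrays. The part of floral or seed transcripts in the *CYP78A9* signal was not tested.

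**Figure D4:**
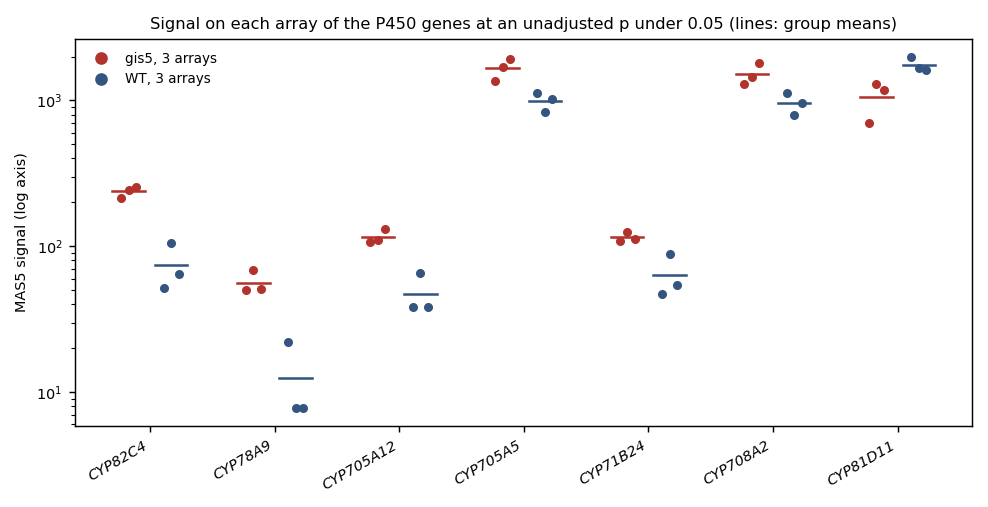
MAS5 signal on a log axis for the 7 P450 genes with an unadjusted p under 0.05 in limma. Points are arrays, *gis5* left of WT for each gene, and lines are group means of the 3 arrays. The *gis5* arrays are all above the WT arrays for 6 genes and all below for *CYP81D11*, and 2 WT arrays of *CYP78A9* are under 10.

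The subfamily CYP71B made up 19 of the 37 members, all of them named by the platform annotation, so that their naming did not depend on these arrays. Many of its enzymes have no established substrate, and close relatives lie side by side in the genome. At an unadjusted p under 0.05, 1 of 19 had a higher signal in *gis5* and 0 a lower one, near the shares of 5.77% and 2.97% among all probe sets named by the platform annotation. The log2 ratios ran from −0.30 to 0.76 with a median of 0.17, and 15 were positive, where 54.1% of those probe sets were. With the arrays centred on their medians the ratios of *CYP71B36*, *CYP71B26*, *CYP71B34* and *CYP71B5* turned negative. Without centring these 4 lay between 0.02 and 0.06. None of the 19 probe sets is of the kind that matches several genes by design, but the signals of such close relatives are uncertain. A probe set for *CYP71B20* and *CYP71B19* together was left out, as was another that *CYP79C2* shares with AT1G58265.

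*CYP71B24* (AT3G26230) was the member of this subfamily past the unadjusted threshold. Its signals of 109, 124 and 112 in *gis5* were all above the 47.1, 88.9 and 54.0 in WT. The *gis5* arrays were close together and the WT arrays apart, with a log2 ratio of 0.76 ± 0.22 (limma adjusted p = 0.41), and 0.51 with a pseudocount of 64. On chromosome 3 it stands in a row with *CYP71B21*, *CYP71B22* and *CYP71B23*, with at most 1 gene between neighbours. The row's log2 ratios were 0.38, 0.08, 0.24 and 0.76 in gene order. *CYP71B21* (AT3G26190) had 2.58, 6.65 and 28.8 in *gis5* and 9.76, 0.760 and 3.67 in WT, all far below the array medians. *CYP71B23* (AT3G26210) had 137, 194 and 129.95 in *gis5* and 122, 132 and 123 in WT, which overlap.

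A longer row on the same chromosome holds *CYP71B25*, *CYP71B26*, *CYP71B34*, *CYP71B35*, *CYP71B36* and *CYP71B37*. Their log2 ratios ran from −0.08 to 0.50 and none had an unadjusted p under 0.05. *CYP71B37* (AT3G26330), at the end of the row, had 212, 262 and 235 in *gis5* and 173, 105 and 229 in WT. All but 1 of its *gis5* arrays were above the WT arrays, and the log2 ratio was 0.50 ± 0.27 (95% interval −0.14 to 1.15, limma adjusted p = 0.64). *CYP71B26* (AT3G26290) had 491, 720.2 and 652 in *gis5* and 564, 677 and 553 in WT, with a log2 ratio of 0.04 and an interval from −0.42 to 0.51. The signals of *CYP71B34* (AT3G26300) were likewise mixed, with 297, 403 and 297 in *gis5* and 253, 393 and 325 in WT.

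*CYP71B6* (AT2G24180), which acts on indole-3-acetonitrile, had 1276, 1082 and 1109.8 in *gis5* and 958, 1053 and 1050.3 in WT. The groups did not overlap, yet the difference was small, a log2 ratio of 0.17 ± 0.15 (95% interval −0.18 to 0.53, limma adjusted p = 0.76). *CYP71B28* (AT1G13090) had the most negative ratio of the subfamily, −0.30 ± 0.31, from 193, 453 and 348 in *gis5* and 418, 327 and 428 in WT. Only replicate 1 of *gis5* lay below all WT arrays there. Its neighbour *CYP71B29* (AT1G13100) had the opposite sign, 0.34 ± 0.26, with 256, 269 and 184 in *gis5* and 128, 193 and 237 in WT. *CYP71B5* (AT3G53280) had a log2 ratio of 0.02 and an interval from −0.57 to 0.61.

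Among the members with the widest spread between replicates were several dim ones of this subfamily, and no difference was detectable there. *CYP71B27* (AT1G13070) had 1.03, 41.9 and 50.4 in *gis5* and 1.26, 10.8 and 57.5 in WT, a log2 range of 1.96 within *gis5* and of 2.09 within WT. *CYP71B38* (AT3G44250) had 6.57, 39.6 and 67.1 in *gis5*, with 2.04, 31.4 and 19.2 in WT. In both genes replicate 1 was the lowest array of each genotype. *CYP71B25* (AT3G26270), with 2.82, 39.4 and 13.7 in *gis5* and 1.42, 4.17 and 20.02 in WT, and *CYP71B16* (AT3G26150), with 9.46, 3.39 and 3.72 in *gis5* and 4.78, 1.14 and 33.4 in WT, also had wide ranges, *CYP71B25* in *gis5* and *CYP71B16* in WT. The median log2 range over 3 arrays was 0.54 in *gis5* and 0.66 in WT for the 37 members, against 0.42 and 0.48 for all probe sets. The remaining members of the subfamily, *CYP71B22*, *CYP71B30P* (a pseudogene by its symbol), *CYP71B31* (known to oxidise linalool in flowers), *CYP71B35* and *CYP71B36*, had log2 ratios between −0.14 and 0.45, all with overlapping arrays.

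*CYP81D11* (AT3G28740, given as CYP81D1 in the study's list), a gene known for its induction by *cis*-jasmone and by foreign compounds, was the only member with a lower signal in *gis5* at an unadjusted p under 0.05. Signals were 695, 1304 and 1173 in *gis5* and 1985, 1671 and 1625 in WT. Replicate 1 was the lowest *gis5* array and the highest WT array. The gene was named only through the study's list, where 14% of the probe sets were lower at this threshold. The log2 ratio was −0.77 ± 0.26 (95% interval −1.39 to −0.15, limma adjusted p = 0.46). It was −0.50 without *gis5* replicate 1, and without WT replicate 1 it was −0.68 and no longer had an unadjusted p under 0.05.

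*AOS* (AT5G42650, CYP74A), for the allene oxide synthase of jasmonate synthesis, is an unusual P450 that needs neither oxygen nor a reductase. It was named only through the study's list and had 629, 628 and 524 in *gis5* and 578, 1119 and 1002 in WT. WT replicate 1 lay among the *gis5* arrays, and the log2 ratio was −0.54 ± 0.27 (limma adjusted p = 0.61), or −0.82 (adjusted p = 0.28) without that array. Of 9 other genes of the pathway 2 had a named probe set, in each case named only through the study's list. *LOX2* (AT3G45140), the lipoxygenase gene of the chloroplast, was at −1.07 ± 0.25 (limma adjusted p = 0.29), and *AOC3* (AT3G25780) at 0.24 ± 0.32.

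*CYP707A2* (AT2G29090), for an abscisic acid 8′-hydroxylase that breaks the hormone down, had 225, 224 and 327 in *gis5* and 184, 221 and 159.9 in WT. The arrays did not overlap by a narrow margin, at a log2 ratio of 0.42 ± 0.21 (95% interval −0.09 to 0.92, limma adjusted p = 0.61). *CYP707A2* was named only through the study's list, where 38.2% of the probe sets had every *gis5* array above every WT array. *AAO3* (AT2G27150), of abscisic acid synthesis, was 1 of 5 listed genes measured. It was named only through the study's list and had a log2 ratio of 0.58 ± 0.25. Of the P450 lists of brassinosteroids, gibberellins, carotenoids, and cytokinins and strigolactones, 0 members had a named probe set. Among other gibberellin genes only *GA2OX8* (AT4G21200), for an enzyme of gibberellin breakdown, was measured, and it was named only through the study's list. It had 59.7, 39.9 and 54.5 in *gis5* and 28.1, 14.995 and 19.8 in WT, a log2 ratio of 0.87 ± 0.20 (limma adjusted p = 0.28). Of 5 carotenoid genes 2 were measured, *LYC* at −0.23 and *BCH2* at −0.39, and neither passed an adjusted p of 0.05 in limma. *BCH2* was named only through the study's list, *LYC* by the platform annotation.

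Among the P450 genes of indolic compounds and glucosinolates, 2 of 16 were members, *CYP71B6* above and *CYP79A2* (AT5G05260), which turns phenylalanine into its aldoxime. *CYP79A2* had 4.47, 16.01 and 5.93 in *gis5*, against 2.82, 1.80 and 1.56 in WT. All of these are far below the array medians, though the groups did not overlap, and the log2 ratio of 0.43 ± 0.21 was 1.52 with a pseudocount of 1. Of 19 other genes of these pathways 3 were measured: *MAM3* (AT5G23020), of methionine chain elongation, had a log2 ratio of 0.85 ± 0.27 (limma adjusted p = 0.45), *BCAT4* one of −0.11 and *UGT74B1* one of −0.00085. *MAM3* was named only through the study's list, *BCAT4* and *UGT74B1* by the platform annotation.

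The phenylpropanoid list had 1 member of 7, *CYP84A4* (AT5G04330), a relative of ferulate 5-hydroxylase, with 73.03, 106 and 70.3 in *gis5* and 117, 72.8 and 96.3 in WT. These overlap, at a log2 ratio of −0.17 ± 0.22 (95% interval −0.70 to 0.36). Of 16 other genes of the pathway 5 were measured. *PAL1*, *4CL2*, *4CL3* and *F3H* had log2 ratios between 0.44 and 0.69 and were named through the study's list, and *HCT*, named by the platform annotation, had −0.17. Of these 5, 1 (*F3H*) had an unadjusted p under 0.05 (0.0498 in limma), and with the arrays centred on their medians it was 0.094. Of the probe sets named through the study's list 30.8% were higher at an unadjusted p under 0.05.

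For surface and suberin lipids, 2 of 17 P450 genes were members. *CYP86A4* (AT1G01600), a fatty acid ω-hydroxylase gene of cutin, had 216, 136 and 141 in *gis5* and 174, 148 and 101 in WT, a log2 ratio of 0.20 ± 0.26. *CYP77B1* (AT1G11600) had 246, 228 and 183 in *gis5* and 197, 239.7 and 301 in WT, a log2 ratio of −0.14 ± 0.21. Both overlapped between the genotypes. Of 15 other genes of these lipids 6 were measured, all named through the study's list. At an unadjusted p under 0.05, 3 were higher and 1 lower, where 30.8% and 14% of the probe sets named in that way were, and nothing is read from these counts. The suberin genes *ASFT* (AT5G41040), *FAR4* (AT3G44540) and *FAR5* (AT3G44550), which are used in the root, had log2 ratios of 0.55, 0.49 and 0.54, and *BDG1* (AT1G64670), a cuticle gene of the shoot, had −0.46, none past an adjusted p of 0.05 in limma (adjusted p between 0.34 and 0.45).

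The sterol genes were *CYP710A1* (AT2G34500), for a C-22 desaturase, at a log2 ratio of 0.11 ± 0.26, and *CYP51G2* (AT2G17330) at −0.0091 ± 0.49. *CYP51G2* had 4.31, 41.6 and 8.78 in *gis5* and 6.65, 37.4 and 8.39 in WT, and replicate 2 was the high array in both genotypes. *CYP709B3* (AT4G27710), of the clan CYP72, was lower on all *gis5* arrays, with 442, 471 and 427, against 490.5, 502 and 606 in WT. The size of this difference was a log2 ratio of −0.24 ± 0.16 (limma adjusted p = 0.69). *CYP709B3* was named only through the study's list, where 18.4% of the probe sets had every *gis5* array below every WT array. *CYP82F1* (AT2G25160) had 234, 151 and 306 in *gis5* and 197, 131 and 218 in WT, a log2 ratio of 0.29 ± 0.30. By clan, 29 of the 37 members belonged to CYP71 and 3 to CYP85, and the clans of the other 5 had 1 member each.

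Of 7 genes for electron donors of P450 enzymes, 2 had a named probe set and neither passed an unadjusted p of 0.05. *CB5-C* (AT2G46650), a cytochrome b5 gene, was named only through the study's list. It had 1085, 973 and 1270.2 in *gis5* and 591, 1019.8 and 684 in WT, a log2 ratio of 0.56 ± 0.24 (limma adjusted p = 0.56). *TAH18* (AT3G02280), a diflavin reductase gene, had 202, 94.9 and 92.4 in *gis5* and 172, 141 and 182 in WT, a log2 ratio of −0.38 ± 0.30, with 1 *gis5* array above all WT arrays and the others below them.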

How the data were processed

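The data are 6 ATH1 arrays, 3 of *gis5* and 3 of WT. The authors deposited linear signal intensities, 1 per probe set and array; per the labels these are MAS5 values, version not given in the sources used here, and their mean after trimming 2% at either end is about 500 on every array. The study's methods name RMA values of the same arrays, which were not used, nor were the authors' differences and p-values in the study's gene list. After 64 control probe sets were left out, log2(signal + 16) was fitted by lmFit and moderated by eBayes (limma 3.58.1, R 4.3.3), with genotype as the only term and no further scaling. Array medians differed by at most 9.53%, and every *gis5* median was above every WT median. The fit was tested on simulated data in which only probe sets above the median signal were changed, so it was not tested for changes in dimmer ones. The number of arrays, 3 a genotype, limits the precision. A p-value sets the difference of the group means against the spread between arrays of a genotype, moderated over all probe sets.

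The platform annotation gave 13513 probe sets a single gene, 503 stand for several genes each and entered no list, 851 were named only through the study's list, and 7879 had no name here. Symbols were updated through TAIR10.1 of RefSeq. No build is named for these data, so no coordinates are given. The members, the pathway and marker lists and the rule for named genes (every member at an unadjusted p under 0.05; of each pathway and partner list up to 4 genes with the smallest p; the 5 members with the widest range in either genotype; cluster neighbours; other members are named to account for all 37) were chosen with earlier results of these data known. Where RefSeq gives a gene name neither as symbol nor as synonym, the locus code is given. Nothing says that replicates share a batch, and same-numbered arrays deviated from their group means without common direction (correlations −0.062, −0.00028 and −0.041), so the numbers were not used to pair arrays. Alternatives were other scalings, pseudocounts of 1 and 64, a filter on dim probe sets, another variance model, the replicate block, leaving out each array, leaving out the probe sets whose suffix marks several targets, and other ways to choose the members.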

Additional observations from a re-analysis of the deposited data

How the results depend on the processing

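With a pseudocount of 64, 1 P450 gene (*CYP82C4*) was higher in *gis5* at an adjusted p under 0.05, 2 were lower at an unadjusted p under 0.05 (*CYP81D11* and *AOS*) and 1 was higher past the thresholds of the methods. A fit restricted to the brighter side of the array, with mean signals over the median, leaves 16 of the 37 members, and these counts were 0, 2 and 0. In that fit *CYP707A2* and *CYP71B37* were higher at an unadjusted p under 0.05 (0.038 each in limma). A pseudocount of 1 gave 7 higher at an unadjusted p under 0.05 and 4 past the thresholds of the methods, *CYP79A2* being added in both. A trended and robust variance gave 2 higher at an adjusted p under 0.05 (*CYP82C4* and *CYP705A5*) and 2 lower at an unadjusted p under 0.05. Members named by the platform annotation alone gave 2 higher and 0 lower at an unadjusted p under 0.05 and 1 past the thresholds of the methods. The cause of these differences was not tested, except that the filter and the last choice leave fewer members.

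Leaving out 1 array gave between 5 and 9 members higher and 1 lower at an unadjusted p under 0.05 (*CYP81D11*, but *AOS* without WT replicate 1), between 2 and 4 past the thresholds of the methods, 0 at an adjusted p under 0.05, and a median log2 ratio between 0.07 and 0.29. The replicate number as a block gave 6 higher, 1 lower and 0 at an adjusted p under 0.05, so the pairing changed no call of a P450 gene, while 2 iron deficiency genes had an unadjusted p under 0.05, against 3 without the block, and 1 root marker, against 2. With the arrays centred on their medians the same 6 and 1 members were called, while of all probe sets 968 were higher and 1133 lower, against 1363 and 696 without centring. No log2 ratio of the 7 members at an unadjusted p under 0.05 changed sign in any alternative. The other ways to choose members added 0 genes. With 3 arrays a group and 21 members at or below the median signal, small differences were not detectable.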
